A study of Mus musculus with 9 samples.

Results

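The genes described here are 10 heat shock chaperone genes measured by RNA-seq in mouse embryonic stem cells: Hspa1a, Hspa1b, Hspa8, Hsph1, Dnajb1, Bag3, Hsp90aa1, Hspb1, Hspd1 and Hspe1. They were picked by name from a table of 29069 genes, with earlier results of these data known, and each name matched 1 row. All 10 had a mean above 5 normalised counts over the samples and were among the 18156 genes tested. The cells were mES-D3, an established line grown without feeder cells and used at passages p5-p8, and every sample was taken after 24 h in its medium. Ground state (GS) cells were kept in serum-free N2B27 with the MEK inhibitor PD0325901 at 1 μM, the GSK-3 inhibitor CHIR99021 at 3 μM and LIF at 20 ng/mL. Spontaneous differentiation medium (DM) was DMEM with 10% FBS and neither inhibitor, and the mesendodermal medium (NO) was the same with 250 μM DETA/NO, which releases nitric oxide in culture. GS therefore differed from the other media in base medium, serum, inhibitors and LIF at once, and these cannot be told apart. DM and NO differed by the nitric oxide donor alone, so the comparison of NO with DM addresses the donor and that of DM with GS the change of medium. There were 3 samples of each medium, from 1 line. The study's methods give 1 dish per sample and a general statement of independent experiments, but do not say for these 3 sequenced samples whether they came from separate experiments, so the p-values measure the spread between these samples, which may be technical in part.

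Chaperones hold unfolded proteins, help them fold and pass those that cannot be rescued to degradation. Proteins of the HSP70 family work in cycles of ATP hydrolysis, in which a J-domain protein delivers the substrate and starts hydrolysis, and a nucleotide exchange factor resets the cycle. HSP90 takes over partly folded clients such as kinases and steroid receptors, small heat shock proteins hold unfolded protein without ATP, and HSP60 with its HSP10 lid folds proteins inside mitochondria. When unfolded protein accumulates, heat shock factor 1 (HSF1) forms trimers that bind the heat shock element, a run of short inverted repeats before these genes, and raises their transcription. Some members, such as Hspa8 and Hsp90aa1, are also transcribed at high levels without stress, and embryonic stem cells are known for high levels of several chaperones.

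The letters of the heat shock element are shown first, since they are what most of these genes share and what the gene names do not tell. The promoter windows run from 250 bases before to 50 bases after the annotated start of a gene and come from RefSeq (GRCm38.p6); 8 of the 10 genes have at least 1 entry, with 11 windows in all. In the 250 bases before the start, both strands were searched for 2 facing units, GAANNTTC or TTCNNGAA, and for 3 alternating units, GAANNTTCNNGAA or TTCNNGAANNTTC; each form with 2 units is its own reverse complement, and each form with 3 units holds those with 2. The 2-unit forms were found in 7 of the 11 windows, belonging to 6 of the 8 genes, against 12.84% of all 32851 windows. The 3-unit forms were found in 2 of the 11 windows, 1 of the 2 windows of Hspd1 and that of Hspe1, which hold the same stretch, against 0.47% of all windows. Hsph1, which encodes an HSP110-type exchange factor, held 1 match, which lies in both of its overlapping windows and so counts for 2 of the 7. Neither Dnajb1 nor Bag3 held a perfect match, which says only that these letters were not in the window. A match is a description of the sequence, not a bound site.

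The 150 bases before the start of the stress-inducible HSP70 genes are printed because the genes are near-identical copies whose values differed: Hspa1a at chr17:34972157-34972306 and Hspa1b at chr17:34959239-34959388, both on the minus strand. Capitals mark the 2-unit element, which begins 104 bases before the start in both. The stretches were identical at 149 of 150 positions, and over 250 bases at 247 positions (98.8%).
Hspa1a: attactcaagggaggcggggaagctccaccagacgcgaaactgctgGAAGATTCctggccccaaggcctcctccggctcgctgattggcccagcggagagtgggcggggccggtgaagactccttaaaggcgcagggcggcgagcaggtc
Hspa1b: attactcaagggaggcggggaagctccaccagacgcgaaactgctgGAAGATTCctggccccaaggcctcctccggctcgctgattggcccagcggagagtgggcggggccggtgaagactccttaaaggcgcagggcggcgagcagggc

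Hspb1, the small heat shock protein that moved between media, held 2 matches, which begin 117 and 97 bases before its start and are in capitals in chr5:135887796-135887835 on the plus strand. The element shared by the mitochondrial genes Hspd1 and Hspe1 lies at chr1:55088053-55088082, before the start of Hspe1 and inside the annotated Hspd1 gene, in the window of its start at 55087932. The window of the other Hspd1 start, at 55088243, held no match. It is printed on the plus strand, the strand of Hspe1, with its first unit 89 bases before the start of Hspe1, and the capitals mark the overlapping matches.
Hspb1: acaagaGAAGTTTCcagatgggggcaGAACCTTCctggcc
Hspe1: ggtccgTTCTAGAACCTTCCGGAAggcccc

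The libraries held an estimated 14285670 to 27080406 counted reads, as recovered from the step between values, so that 1 read was worth 0.7005 to 1.3235 normalised counts. On the first principal component of all tested genes the NO samples lay at 25.9, 131.2 and 67.1 and the other 6 between -49.1 and -26, so NO replicate 2 stood farthest from the rest. All 11 embryonic stem cell markers were above 0 in every medium, with summed levels of 100023 to 102568 in GS, 101797 to 112572 in DM and 59255 to 97315 in NO. Summed markers of other cell types were low: 8 embryonic fibroblast genes reached 99 to 122 in GS, where Twist2 was at 0, 231 to 249 in DM, where Postn and Twist2 were at 0, and 213 to 306 in NO. The 6 primitive endoderm genes summed to 108 to 165, 96 to 167 and 200 to 539, and the 6 trophoblast genes to 347 to 427, 152 to 210 and 217 to 818 in the same order, with every one of these genes above 0 in each medium. These levels moved with the media and their part in the results was not tested. In bulk RNA, a change in the number of cells of a type and a change in RNA per cell cannot be told apart.

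The deposited values exclude reads that overlapped several genes or aligned to several places, which touches several of these genes. Of the 100-base windows of the longest transcript, the share also found in a transcript of another gene was 56.5% for Hspa1a and 49.9% for Hspa1b, mostly each other. It was 47.5% for Hsp90aa1, 42.7% for Hspb1, 32.1% for Hspa8 and 26.9% for Hspd1, mostly from processed copies, 0.3% for Hspe1 and 0 for Hsph1, Dnajb1 and Bag3. Levels of these first 6 are uncertain and understated by this step, and whether by the same share in every library was not tested. Exons of Hspd1 and Hspe1 overlap by 112 bases on opposite strands (4.2% and 7.6% of their exon length), 6.1% of the exon length of Hspa8 overlaps small nucleolar RNA genes, and 19.0% of the Hspa1a exon overlaps Gm20481 on the plus strand; whether counting used the strand is not given in the sources used here.

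Levels are compared between genes per kilobase of exon, as the mean over the 9 samples and the rank among 14834 tested protein-coding genes. Hsp90aa1, the inducible cytosolic HSP90, was the highest of the 10 at 11700 normalised counts per kb (rank 27), followed by the constitutive HSP70 Hspa8 at 9288 (rank 45). The mitochondrial HSP60 gene Hspd1 reached 4228 (rank 127), Hspb1 3002 (rank 196) and the HSP10 gene Hspe1 2592 (rank 253). Lower were the J-domain gene Dnajb1 at 676.4, Hsph1 at 361.9 and Bag3, an HSP70 exchange factor that acts in selective autophagy, at 172.9. The inducible HSP70 genes were the lowest, Hspa1b at 75.95 (rank 7760) and Hspa1a at 24.75 (rank 10516). Over the 9 samples the ranges of neighbours in this order overlapped, except between Hspe1 (1791 at its lowest) and Dnajb1 (1084 at its highest), between Dnajb1 (523.1) and Hsph1 (502.2) and, narrowly, between Hsph1 (226.9) and Bag3 (226.8). Together the 10 genes made up 0.572%, 0.582% and 0.748% of the summed values in GS, 0.641%, 0.564% and 0.459% in DM and 0.62%, 0.386% and 0.499% in NO, ranges that overlap in every pair (two-sided exact permutation test, p = 0.4 for DM against GS, 0.3 for NO against GS and 0.6 for NO against DM, where the smallest possible is 0.1). Hspa8 and Hsp90aa1 alone held 74.8% to 82.0% of that share.

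**Figure D1:**
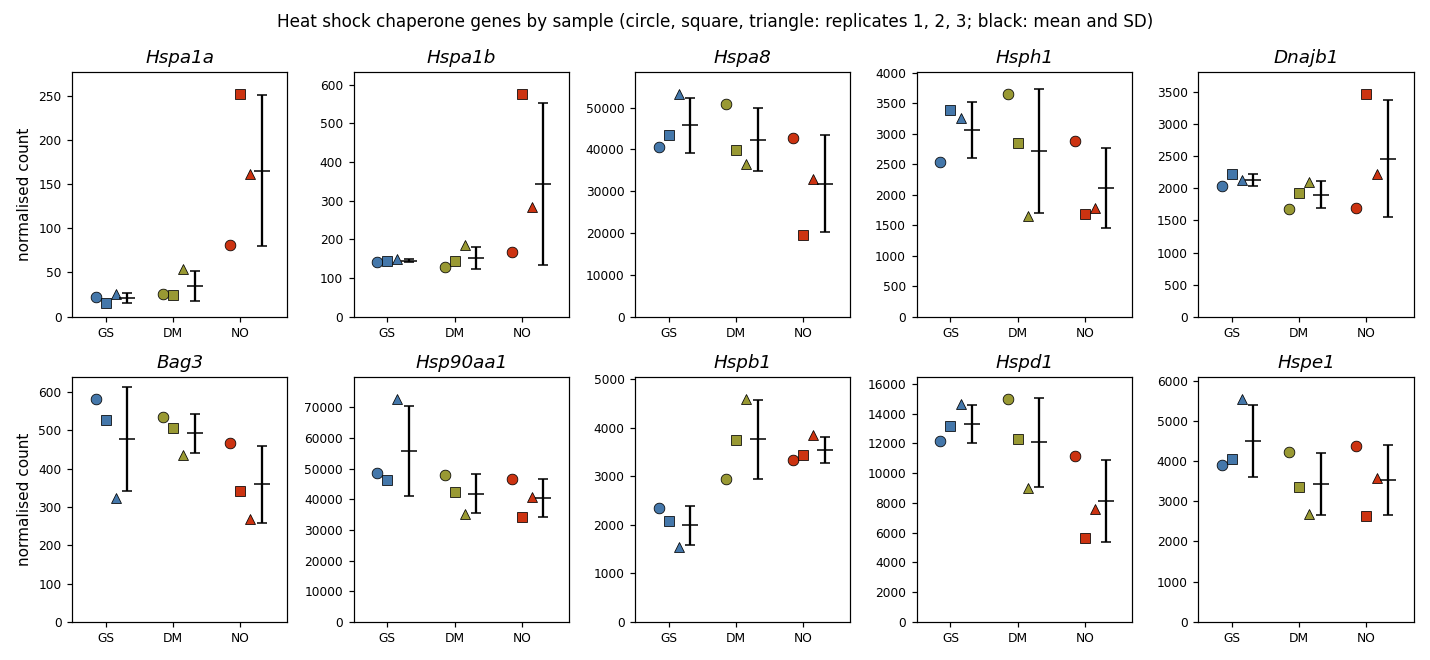
Normalised counts (y axis, linear, from 0, 1 scale per gene) of the 10 genes in GS, DM and NO (x axis); each symbol is 1 sample, with circle, square and triangle for replicates 1, 2 and 3, and black marks give the mean and SD. Hspa1a and Hspb1 show groups that separate, while the members with high levels, such as Hspa8, overlap.

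Across the media, the inducible Hspa1a rose with the nitric oxide donor, Hspb1 was higher in both serum media than in GS, Hspd1 was lower in NO than in GS by a margin close to the threshold, and the other 7 members passed no test at an adjusted p of 0.05. In limma's moderated F test among the 3 media, 2 of the 10 passed, Hspa1a (F = 22.5, adjusted p = 0.00272) and Hspb1 (F = 14.7, adjusted p = 0.00813), against 23.3% of all genes tested. The next were Hspa1b (adjusted p = 0.0665) and Hspd1 (0.0747), and the other 6 lay between 0.204 and 0.503. A gene was called where its adjusted p was under 0.05 and its change at least 2-fold.

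For NO against GS, 1 of 10 was called higher (Hspa1a) and 0 lower, where 10.1% and 1.64% of all genes were. By the adjusted p alone, 2 were higher (Hspa1a and Hspb1) and 1 lower (Hspd1), against 13.4% and 6.64% of all genes. For NO against DM, 1 of 10 was called higher (Hspa1a) and 0 lower, against 6.78% and 1.77%, and the counts by the adjusted p alone were the same, against 9.01% and 5.24%. For DM against GS, limma called 0 in either direction, against 2.94% higher and 1.27% lower, while by the adjusted p alone 1 was higher (Hspb1) and 0 lower, against 4.37% and 2.32%; 1 had an unadjusted p under 0.05. The members' shares thus lay near those of all genes. In each comparison the fit put 4 members above 0 and 6 below, with median log2 fold changes of -0.38 for NO against GS, -0.06 for NO against DM and -0.14 for DM against GS, where the medians of all genes were -0.02, 0.00 and 0.00. The comparisons share samples, so they are not independent of each other.

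**Figure D2:**
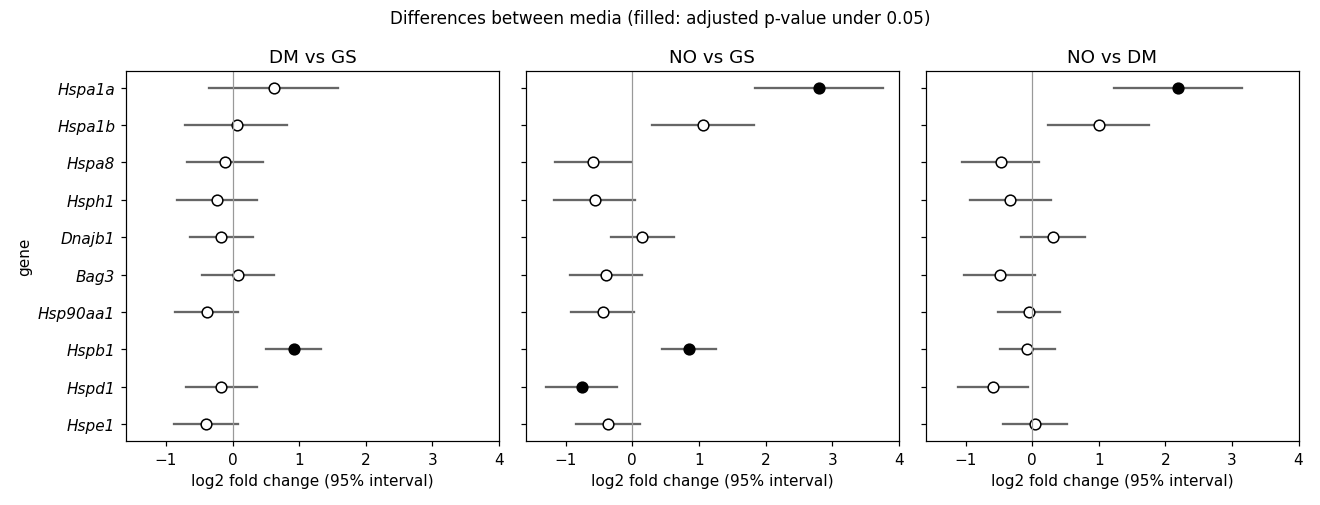
Log2 fold change with its 95% interval (x axis) of each gene (y axis) for each pair of media, from the limma fit; filled points had an adjusted p under 0.05. Hspa1a is filled in both panels with NO, at 2.80 and 2.19, and Hspb1 in both panels with GS, at 0.92 and 0.85.

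Hspa1a and Hspa1b encode the near-identical HSP70 proteins that are made under stress, and lie next to each other on chromosome 17. Hspa1a (ENSMUSG00000091971, chr17:34969190-34972156, minus strand, a single exon) was measured at 22, 15 and 26 in GS, at 25, 24 and 54 in DM and at 81, 252 and 162 in NO, in normalised counts as are all sample values given from here on. Every NO sample was above every other sample, the lowest NO value, that of replicate 1, being 81 against a highest value of 54 in DM. It rose in NO by 2.80 against GS on the log2(value + 1) scale (SE 0.44, 95% interval 1.84 to 3.76, n = 3 per group, limma with Benjamini-Hochberg adjustment, adjusted p = 0.00171), which is 6.98-fold, and by 2.19 against DM (SE 0.44, adjusted p = 0.0101), which is 4.56-fold. Between DM and GS the difference was 0.62 (95% interval -0.35 to 1.58, adjusted p = 0.484), and the groups overlap. Without NO replicate 2, the highest, it was 2.43 (adjusted p = 0.00384) against GS and 1.81 (0.0287) against DM, and both stayed past the threshold in all 19 alternative settings tried. Its values are low, and with 1 read worth about 1 normalised count the GS level of 21.0 ± 5.57 (SD, n = 3) rests on few reads.

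Hspa1b (ENSMUSG00000090877, chr17:34956436-34959238, minus strand) had 140, 145 and 148 in GS, 128, 144 and 184 in DM and 168, 576 and 283 in NO. NO did not overlap GS, but NO replicate 1 lay below DM replicate 3, and NO replicate 2 was by far the highest of the 9 samples. The log2 difference was 1.06 against GS (SE 0.35, 95% interval 0.29 to 1.82, adjusted p = 0.0527) and 1.00 against DM (SE 0.35, 0.24 to 1.76, adjusted p = 0.076), neither past the threshold, and 0.06 between DM and GS (-0.71 to 0.82, adjusted p = 0.953). Whether it passed turned on single libraries: without NO replicate 1 it was 1.48 (adjusted p = 0.00301) and 1.42 (0.00457), and without NO replicate 2 it was 0.59 (0.138) against GS. With samples scaled to equal totals the adjusted p against GS was 0.0329.

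As reads that fit both genes were left out, the pair was also summed to 1 row, an alternative chosen after seeing the data. The sum was 162, 160 and 174 in GS, 153, 168 and 238 in DM and 249, 828 and 445 in NO, so that each NO sample was above all others. Its log2 difference was 1.44 (SE 0.35, adjusted p = 0.0137) for NO against GS, 1.30 (SE 0.35, adjusted p = 0.0303) for NO against DM and 0.15 (adjusted p = 0.865) for DM against GS. The balance within the pair, looked at after the values were seen, differed as well. Hspa1a made up 13.6%, 9.38% and 14.9% of the pair in GS, 16.3%, 14.3% and 22.7% in DM and 32.5%, 30.4% and 36.4% in NO. The mean was 33.1 ± 3.0% in NO, 17.8 ± 4.4% in DM and 12.6 ± 2.9% in GS (SD, n = 3), with NO above both without overlap (two-sided exact permutation p = 0.1 for each, the smallest that 3 against 3 allows). NO replicate 2, which had the highest level of both genes, had the lowest share of the 3 NO samples, so the share did not follow the level within NO.

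**Figure D3:**
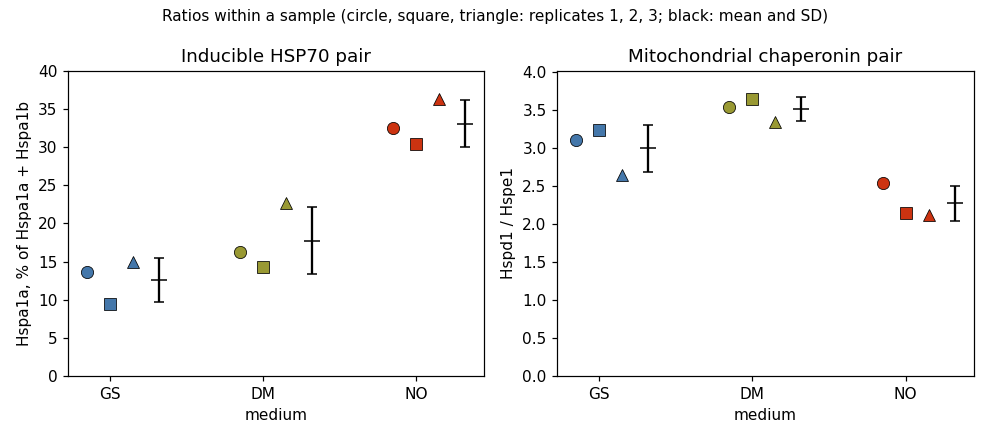
Left, Hspa1a as a percentage of Hspa1a plus Hspa1b, and right, the ratio of Hspd1 to Hspe1 normalised counts (y axes from 0), in GS, DM and NO (x axes); symbols are samples, with circle, square and triangle for replicates 1, 2 and 3, and black marks the mean and SD. NO samples lie at 30.4% to 36.4% on the left, above all others, and at 2.12 to 2.54 on the right, under all others.

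Hspa8 (ENSMUSG00000015656, chr9:40800984-40810087, plus strand) encodes the constitutive HSP70 of the cytosol, which folds nascent proteins and removes clathrin from vesicles. It had 40576, 43423 and 53233 in GS, 50802, 39836 and 36444 in DM and 42676, 19596 and 32940 in NO. The groups overlap, and NO replicate 2 lay far under the other 8 samples. The log2 difference of NO from GS was -0.59 (95% interval -1.16 to -0.02, adjusted p = 0.134), that of NO from DM -0.47 (-1.05 to 0.10, adjusted p = 0.242) and that of DM from GS -0.12 (-0.69 to 0.46, adjusted p = 0.858). Without NO replicate 1 the first was -0.84 (adjusted p = 0.027). The constitutive gene outnumbered the inducible pair in every sample, by 250, 271 and 306 to 1 in GS, 332, 237 and 153 to 1 in DM and 171, 23.7 and 74 to 1 in NO, so the ratio was lowest in NO replicates 2 and 3 and NO overlapped DM.

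The 3 genes that serve the HSP70 cycle passed no test. Hsph1 (ENSMUSG00000029657, chr5:149614287-149636376, minus strand), the HSP110-type exchange factor, had 2541, 3385 and 3251 in GS, 3649, 2851 and 1649 in DM and 2872, 1683 and 1788 in NO. DM spanned the widest range, and its replicate 3 was the lowest of the 9. The difference of NO from GS was -0.56 (95% interval -1.17 to 0.04, adjusted p = 0.173), and without NO replicate 1 it was -0.81 (adjusted p = 0.0456); NO differed from DM by -0.33 (adjusted p = 0.451) and DM from GS by -0.23 (adjusted p = 0.701).

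Dnajb1 (ENSMUSG00000005483, chr8:83608193-83612653, plus strand), the J-domain protein that delivers substrates to HSP70 and a classical HSF1 target, had 2033, 2223 and 2135 in GS, 1676, 1931 and 2108 in DM and 1696, 3473 and 2231 in NO. Only NO replicate 2 stood above the other samples, and the rest lay between 1676 and 2231. NO differed from GS by 0.15 (95% interval -0.32 to 0.62, adjusted p = 0.667) and from DM by 0.32 (-0.16 to 0.79, adjusted p = 0.345), and the first became -0.13 without NO replicate 2. DM differed from GS by -0.17 (-0.64 to 0.31, adjusted p = 0.73).

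Bag3 (ENSMUSG00000030847, chr7:128523616-128546981, plus strand) links HSP70 to small heat shock proteins and to autophagy and is also induced by HSF1. Its values were 581, 528 and 323 in GS, 535, 505 and 436 in DM and 468, 341 and 269 in NO. The NO samples overlapped both other media and held the lowest value of the 9, in replicate 3. The differences were -0.40 for NO against GS (95% interval -0.94 to 0.14, adjusted p = 0.271), -0.48 for NO against DM (-1.02 to 0.05, adjusted p = 0.203) and 0.08 for DM against GS (-0.46 to 0.62, adjusted p = 0.893).

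Hsp90aa1 (ENSMUSG00000021270, chr12:110690605-110702728, minus strand) had 48413, 46104 and 72572 in GS, 47907, 42371 and 35142 in DM and 46592, 34093 and 40625 in NO. GS replicate 3 was far above the other 8 samples, which lay between 34093 and 48413. The differences were -0.39 for DM against GS (95% interval -0.87 to 0.08, adjusted p = 0.344), -0.44 for NO against GS (-0.92 to 0.03, adjusted p = 0.169) and -0.05 for NO against DM (-0.52 to 0.42, adjusted p = 0.905). Its constitutive partner Hsp90ab1, which is no member, had 116671, 108330 and 103175 in GS, 114426, 101854 and 111546 in DM and 81745, 58887 and 75726 in NO, every NO sample under all others. Hsp90ab1 was lower in NO than in GS (log2 fold change -0.61, adjusted p = 0.039) and in DM (-0.61, adjusted p = 0.0495), but neither result was stable. With the replicate number as a block, the adjusted p for NO against DM was 0.0505. With 1 library left out, NO against GS passed without NO replicate 1 and DM replicate 3 only, and NO against DM without NO replicate 1 only, the log2 fold change staying between -0.71 and -0.47 and the adjusted p reaching 0.125 and 0.132. Per kb of exon, Hsp90ab1 had the higher mean of the pair in every medium, at 36480 in GS, 36440 in DM and 24050 in NO, where Hsp90aa1 had 14170, 10640 and 10290.

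Hspb1 (ENSMUSG00000004951, chr5:135887919-135889563, plus strand) encodes HSP25, the mouse counterpart of human HSP27, which holds unfolded proteins and acts on the actin cytoskeleton. It had 2344, 2070 and 1547 in GS, 2949, 3741 and 4583 in DM and 3329, 3438 and 3850 in NO. All 6 samples in serum were above the highest GS sample, while DM and NO overlap, with NO lying inside the range of DM. It rose by 0.92 in DM against GS (SE 0.19, 95% interval 0.50 to 1.33, n = 3 per group, limma adjusted p = 0.0133), which is 1.89-fold, and by 0.85 in NO against GS (SE 0.19, adjusted p = 0.00946), which is 1.80-fold. No difference between NO and DM was detectable, the log2 difference being -0.07 with an interval of -0.48 to 0.35 (adjusted p = 0.846). The change in NO passed in all 19 alternatives, that in DM in 16, with 0.75 (adjusted p = 0.0662) without GS replicate 3, 0.91 (0.0518) without DM replicate 2 and 0.76 (0.0501) without DM replicate 3.

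Hspd1 (ENSMUSG00000025980, chr1:55077835-55088243, minus strand) and Hspe1 (ENSMUSG00000073676, chr1:55088132-55091307, plus strand) encode the mitochondrial HSP60 barrel and its HSP10 lid, and share the short stretch with the 3-unit element printed above, which only the downstream of the 2 Hspd1 starts has before it. Hspd1 had 12138, 13140 and 14663 in GS, 14955, 12271 and 8977 in DM and 11123, 5664 and 7609 in NO. All NO samples were under all GS samples, but NO replicate 1 was above DM replicate 3. Hspd1 was lower in NO than in GS, with a log2 fold change of -0.76 (SE 0.24, 95% interval -1.29 to -0.23, adjusted p = 0.0463), or 0.59 times the GS level, and the differences of NO from DM (-0.59, adjusted p = 0.121) and of DM from GS (-0.17, adjusted p = 0.759) did not pass. It passed in 6 of 19 alternatives, and no longer passed without any 1 of GS replicate 1 (adjusted p = 0.0845), GS replicate 2 (0.111), GS replicate 3 (0.144), DM replicate 2 (0.0653), NO replicate 2 (0.145) and NO replicate 3 (0.114). Without NO replicate 1 it was -1.02 (adjusted p = 0.0058) against GS and -0.85 (adjusted p = 0.017) against DM.

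Hspe1 had 3915, 4050 and 5537 in GS, 4229, 3364 and 2689 in DM and 4384, 2640 and 3581 in NO, and all 3 media overlap. Its differences were -0.40 for DM against GS (95% interval -0.88 to 0.08, adjusted p = 0.347), -0.36 for NO against GS (-0.84 to 0.12, adjusted p = 0.268) and 0.04 for NO against DM (-0.44 to 0.52, adjusted p = 0.926). The ratio of Hspd1 to Hspe1 within a sample, also looked at after the values were seen, separated the media. It was 3.10, 3.24 and 2.65 in GS, 3.54, 3.65 and 3.34 in DM and 2.54, 2.15 and 2.12 in NO. The means were 3.00 ± 0.31, 3.51 ± 0.16 and 2.27 ± 0.23 (SD, n = 3), and no medium overlapped another, with DM highest and NO lowest (two-sided exact permutation p = 0.1 for each pair, the smallest possible). Normalised counts are not divided by length here, so the ratio compares media and not molecules of the genes.

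Which replicates held the extreme values of the members is described here beside the shares over all genes, without a test. NO replicate 2 had the lowest value of all 9 samples for Hspa8, Hsp90aa1, Hspd1 and Hspe1 and the highest for Hspa1a, Hspa1b and Dnajb1. Over all tested genes, this library was the lowest of 9 for 23.9% and the highest for 28.8%, so 4 and 3 of 10 members are near what it did elsewhere. In DM, replicate 3 was the lowest of the 3 for Hspa8, Hsph1, Bag3, Hsp90aa1, Hspd1 and Hspe1 (6 of 10, against 39.1% of all genes) and the highest for Hspa1a, Hspa1b, Dnajb1 and Hspb1 (4 of 10, against 40%). In NO, replicate 1 was the opposite, the lowest of 3 for Hspa1a, Hspa1b, Dnajb1 and Hspb1 (against 38.2%) and the highest for the same 6 genes that were lowest in DM replicate 3 (against 33.7%). DM replicate 1 was also the highest of its medium for those 6 genes (against 29.1%), and the lowest for Hspa1b, Dnajb1 and Hspb1 (against 28.8%). In GS the members split otherwise: replicate 3 was the highest for Hspa1a, Hspa1b, Hspa8, Hsp90aa1, Hspd1 and Hspe1 (6 of 10, against 37.5%) and the lowest for Bag3 and Hspb1 (2 of 10, against 34.3%). The split of the members seen in DM replicate 3 and NO replicate 1 was thus not that of GS replicate 3.

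**Figure D4:**
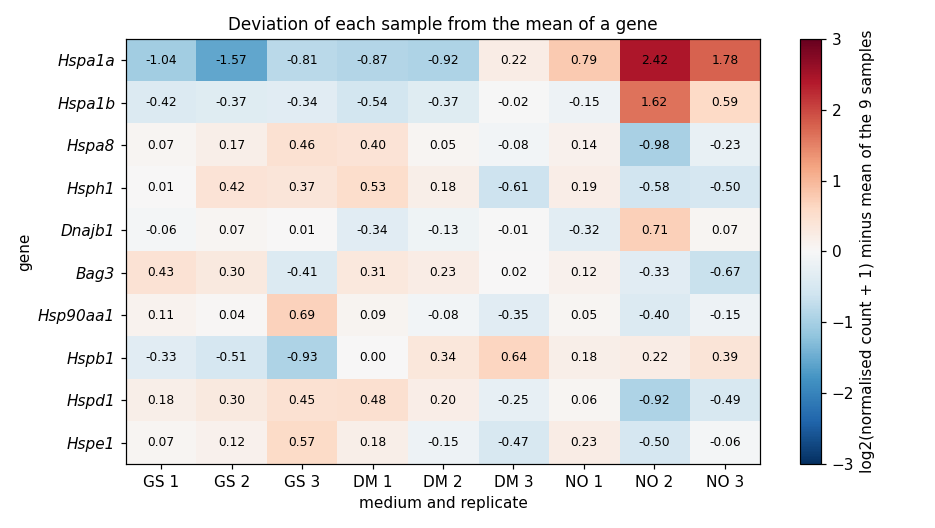
Colour gives log2(normalised count + 1) minus the mean of the 9 samples, for each gene (y axis) in each sample by medium and replicate (x axis). Hspa1a in NO replicate 2 reaches 2.42 above its mean, while Hspa8 and Hspd1 in that sample lie at -0.98 and -0.92.

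Of 148 other chaperone and heat shock response genes in 10 lists, 145 were tested (Dnajb8 was not analysed here, and Hspb3 and Cryaa were under the minimum). In NO against GS, 7 were called higher (4.83%, against 10.1% of all genes) and 0 lower (against 1.64%). By the adjusted p alone 9 were higher (6.21%, against 13.4%) and 25 lower (17.2%, against 6.64%), with a median log2 fold change of -0.15. In NO against DM, 10 were called higher (6.90%, against 6.78%) and 0 lower (against 1.77%), and by the adjusted p alone 13 were higher (8.97%, against 9.01%) and 13 lower (8.97%, against 5.24%), with a median of -0.16. In DM against GS, 1 was called higher and 1 lower (0.69% each, against 2.94% and 1.27%), with a median of -0.05, and by the adjusted p alone 1 was higher and 2 lower (0.69% and 1.38%, against 4.37% and 2.32%). The share that was lower in NO than in GS was above that of all genes and the share that was higher under it, a description without a test. All of these 25 changed by less than 2-fold. The genes compared were not matched for level. With a minimum mean of 50, 1116 of 12395 genes were lower in NO than in GS by the adjusted p, and their median was -0.07. With equal totals it was 656 of 18209 genes. The counts of single lists below stand beside the shares of all genes, and with so few genes per list they are descriptions without a test. Of the genes described from these lists, results that passed with any 1 of the 9 libraries left out are given without further remark, and for the others the libraries they depend on are named.

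**Figure D5:**
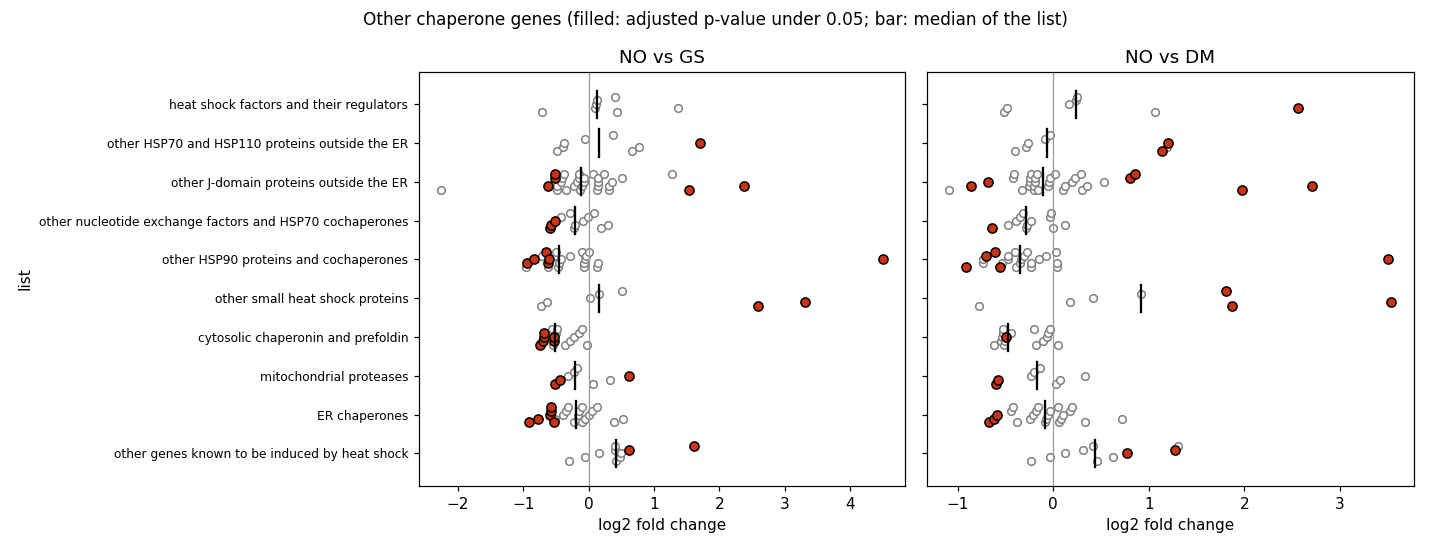
Log2 fold change (x axis) of each tested gene in the 10 lists (y axis) for NO against GS and NO against DM. Filled points had an adjusted p under 0.05 and the bar is the median of the list. The cytosolic chaperonin and prefoldin list sits left of 0 in both panels, at medians of -0.51 and -0.47.

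The transcription factors upstream of these genes passed no test: Hsf1, the main heat shock factor, had 704, 704 and 636 in GS, 643, 553 and 673 in DM and 722, 768 and 705 in NO, and Hsf2 had 820, 841 and 1301, 946, 929 and 628, and 803, 427 and 581 in the same order. For Hsf1 the NO samples lay just above and for Hsf2 just under all GS samples, with limma adjusted p for NO against GS of 0.62 and 0.0677. Of the 7 factors and regulators, 0 were called in DM against GS and in NO against GS (2 had an unadjusted p under 0.05 in each). In NO against DM 1 was called higher (against 6.78% of all genes), Hsf5, a factor of the male germ line. It had 15, 14 and 20 in GS, 7, 8 and 5 in DM and 25, 88 and 37 in NO (log2 fold change against DM 2.56, adjusted p = 0.00645). Its few DM counts lay under all GS samples, and NO against GS did not pass (1.37, adjusted p = 0.0537).

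In the family of Hspb1, the small heat shock proteins, Cryab and Hspb2 rose with the donor. Of 7 tested, 2 were called higher in NO against GS (against 10.1% of all genes) and 3 in NO against DM (against 6.78%), where the list's median was 0.92. Cryab (alpha B-crystallin) had 64, 95 and 126 in GS, 65, 67 and 107 in DM and 371, 2203 and 934 in NO, a log2 fold change of 3.31 (adjusted p = 0.00154) against GS and 3.54 (adjusted p = 0.00286) against DM. Hspb2 had 39, 46 and 44, 57, 68 and 95, and 135, 445 and 311 in the same order, with 2.60 (adjusted p = 0.00117) and 1.87 (adjusted p = 0.00994). For both genes every NO sample was above every other sample. The size depended on single libraries: Cryab was at 2.67 against GS without NO replicate 2 and at 3.96 without NO replicate 1, and at 2.91 and 4.19 against DM. Hspb2 was at 3.09 and 2.36 against GS and DM without NO replicate 1. Hspb6 and Hspb7 were fitted lower in NO than in GS, at -0.64 (adjusted p = 0.189) and -0.73 (0.335), without passing the test. Exons of Cryab and Hspb2 overlap by 252 bases on opposite strands, 17.0% of the exon length of Cryab and 30.2% of that of Hspb2, so the values of these 2 genes may not be independent.

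Hspb8, a small heat shock protein that binds the product of Bag3, followed another course, with 1827, 1584 and 1723 in GS, 517, 506 and 459 in DM and 1323, 2427 and 1606 in NO. It fell in DM against GS, with a log2 fold change of -1.79 (adjusted p = 0.000303), and was higher in NO than in DM by 1.81 (adjusted p = 0.00118), while NO and GS overlap (0.02). Bag3 itself showed no such course, its DM values of 535, 505 and 436 lying within the range of GS.

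Among the HSP90 proteins and cochaperones, 1 of 23 was called higher with the donor in both comparisons (against 10.1% and 6.78% of all genes), Unc45b, a cochaperone for the folding of muscle myosin. It had 19, 17 and 16 in GS, 41, 43 and 26 in DM and 163, 1096 and 403 in NO, a log2 fold change of 4.51 (adjusted p = 0.000603) against GS and 3.50 (adjusted p = 0.00324) against DM. Without NO replicate 2 it was at 3.81 and 2.81, and without NO replicate 1 at 5.19 and 4.18. Exons of the antisense genes Unc45bos and Slfn5os overlap 9.0% of its exon length. Against GS another 5 of the 23 were lower by the adjusted p (against 6.64% of all genes), Hsp90ab1 among them, and the list's median was -0.45, beside -0.02 for all genes. In the cytosolic chaperonin and prefoldin list, which folds actin and tubulin, 6 of 16 were lower in NO than in GS by the adjusted p and 0 higher (against 6.64% and 13.4% of all genes). All 16 were fitted below 0 and the median was -0.51. Against DM, 1 of the 16 was lower (against 5.24% of all genes) and the median was -0.47. The chaperonin subunit Cct2 had 17636, 16565 and 17827 in GS, 15571, 15130 and 16718 in DM and 12995, 8255 and 11682 in NO (log2 fold change against GS -0.68, adjusted p = 0.0162). Cct2 did not pass without GS replicate 1 or GS replicate 3, with an adjusted p of at most 0.0602.

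Of 8 other HSP70 and HSP110 genes outside the endoplasmic reticulum, 1 was called higher in NO against GS (against 10.1% of all genes) and 2 in NO against DM (against 6.78%). Hspa12a, a distant HSP70 relative, had 67, 50 and 41 in GS, 79, 53 and 95 in DM and 125, 261 and 152 in NO, and was higher in NO by 1.71 against GS (adjusted p = 0.00447) and 1.20 against DM (adjusted p = 0.0311). Against DM it did not pass without DM replicate 1, DM replicate 2, GS replicate 2, NO replicate 2 (0.90, adjusted p = 0.102) or NO replicate 3, with an adjusted p of at most 0.109. Hspa4l, an HSP110-type protein like Hsph1, was higher in NO than in DM by 1.14 (adjusted p = 0.0282), with 79, 59 and 60 in GS, 50, 58 and 44 in DM and 79, 175 and 102 in NO, which overlaps GS. Hspa4l did not pass without any 1 of the 3 DM samples, NO replicate 2 (0.82, adjusted p = 0.081) or NO replicate 3. Of 12 other exchange factors and cochaperones of HSP70, 3 were lower in NO than in GS by the adjusted p and 0 higher (against 6.64% and 13.4% of all genes). St13 had the smallest p (-0.60, adjusted p = 0.0114).

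Of 32 other J-domain genes tested, 2 were called higher in NO against GS and 2 in NO against DM (against 10.1% and 6.78% of all genes), and 0 lower in either (against 1.64% and 1.77%). By the adjusted p alone, 2 were higher and 3 lower in NO than in GS (against 13.4% and 6.64% of all genes), and 4 higher and 2 lower in NO than in DM (against 9.01% and 5.24%). The medians of the list were -0.12 and -0.11. Dnajb5 had 212, 187 and 177 in GS, 288, 285 and 398 in DM and 404, 799 and 535 in NO, a rise of 1.54 against GS (adjusted p = 0.00159). Dnajb3 had at most 3 in any GS or DM sample and 7, 29 and 20 in NO. It reached the minimum mean only through NO, and not without NO replicate 2, so its calls in both comparisons with NO are no support. Against GS it also did not pass without GS replicate 2 or NO replicate 3 (adjusted p at most 0.0654). Against DM it did not pass without DM replicate 2 or NO replicate 3 (at most 0.0573). Dnaja4 was called in NO against DM (1.98, adjusted p = 0.0279), but not without DM replicate 2, DM replicate 3 (adjusted p = 0.0772), NO replicate 2 (0.0966) or NO replicate 3 (0.0644), and 44.1% of its exon length overlaps Wdr61. In DM against GS only Dnajc22 was called, higher by 1.00 (adjusted p = 0.0198), where 2.94% of all genes were called higher. It did not pass without DM replicate 2, DM replicate 3, GS replicate 2 or GS replicate 3, with an adjusted p of at most 0.0842. Dnajb1, the member of this family, was thus not among those called.

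Serpinh1, the collagen chaperone HSP47 and a known heat shock target, had 670, 558 and 519 in GS, 638, 699 and 897 in DM and 1044, 2736 and 1970 in NO, a rise of 1.62 against GS (adjusted p = 0.0031) and 1.27 against DM (adjusted p = 0.0159). Against DM it did not pass without DM replicate 1, DM replicate 2 or NO replicate 3, with an adjusted p of at most 0.0594. Serpinh1 was the only one called of 10 other genes known to be induced by heat shock, where 10.1% and 6.78% of all genes were called higher in NO against GS and DM. The medians of these 10 were 0.41 in NO against GS and 0.43 in NO against DM. Among 22 chaperones of the endoplasmic reticulum, 6 were lower in NO than in GS by the adjusted p and 3 in NO than in DM (against 6.64% and 5.24% of all genes). In both comparisons 0 were higher (against 13.4% and 9.01%). Pdia6, a protein disulphide isomerase, had 8212, 6862 and 7921 in GS, 7945, 7491 and 8996 in DM and 5868, 4057 and 5581 in NO (log2 fold change against DM -0.67, adjusted p = 0.0212). Against DM it did not pass without DM replicate 1 or DM replicate 3, with an adjusted p of at most 0.0621. Of 8 mitochondrial proteases and related ATPases, 2 were lower in NO than in DM by the adjusted p (against 5.24% of all genes), Lonp1 with the smallest p (-0.60, adjusted p = 0.0177). In NO against GS 1 was higher (against 13.4% of all genes), Clpb (0.62, adjusted p = 0.0065), an ATPase that is not itself a protease, and 2 were lower (against 6.64%).

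The genes whose log2 values ran most like a member over the 9 samples were taken among genes with a mean above 50, for the 3 members with the largest F. For Hspa1a they were Otud6a (Pearson r = 0.996), Fermt3 (0.988) and Dmkn (0.985), for Hspb1 Slc9a5 (0.969), Mmp11 (0.965) and Flywch2 (0.964), and for Hspa1b Jun (0.992), Nrarp (0.992) and Fbf1 (0.99). Otud6a, for example, had 29, 21 and 32 in GS, 32, 36 and 56 in DM and 69, 153 and 118 in NO, its highest and lowest NO samples being those of Hspa1a. Otud6a and Dmkn, with at most 56 and 15 in any GS or DM sample, reached the mean above 50 only through NO. Their likeness to Hspa1a, which is high in NO, is therefore no support. Flywch2, with at most 32 in any GS sample, reached that mean only through DM and NO, where Hspb1 is high. Its likeness to Hspb1 is therefore no support either. All of these likenesses are descriptions over 9 samples that share media, libraries and depth, and the genes matched to Hspa1a and Hspa1b share with them the high values of NO replicate 2.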

How the data were processed

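Total RNA was depleted of ribosomal RNA and sequenced on an Ion Torrent Proton. Per the study's methods and the submitters' processing notes, the authors trimmed reads, aligned those of 30 to 150 bases to GRCm38 with STAR 2.4.0a, counted exons with featureCounts 1.4.5-p1 without reads of several genes or places, and normalised with DESeq2. The deposited values are these normalised counts rounded to whole numbers, treated here as a score, since raw counts are needed for a count model. Tests used limma 3.58.1 in R 4.3.3 on log2(value + 1) of the 18156 genes with a mean above 5, with the 3 media in 1 fit, a variance trend and Benjamini-Hochberg adjustment. Fold changes on this scale understate those of low genes. Coordinates and overlaps are from GENCODE M21, and promoter sequences from RefSeq (GRCm38.p6). Depth was estimated from the step between values, and sequencing batch was not given in the sources used here, so within-batch values could not be had. Replicate numbers are from the sample names. The labels do not say whether equal numbers mean a shared culture or batch. Deviations of same-numbered NO and DM samples correlated at 0.159, 0.167 and 0.296, every one above 0.1, and with GS the correlations lay between -0.232 and 0.05. Samples with different numbers were not compared, so a pairing of NO with DM is possible but not established.

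The members and gene lists were chosen with earlier results of these data known. All 10 members are named. From each other list, up to 3 called genes per comparison with the smallest adjusted p were picked, or 1 gene where none was called, with Hsp90ab1, Hsf1 and Hsf2 always named. Of those picked where none was called, Ahsa2, Bag5, H2-Ke2, Hsf2bp, Hspa12b, Pfdn4, Slc5a3, Spg7 and l7Rn6 are not described above. By the adjusted p, Ahsa2, Pfdn4 and l7Rn6 were lower in NO than in GS. H2-Ke2 and l7Rn6 were lower and Slc5a3 higher in NO than in DM. Each of these no longer passed with some single library left out. For the likeness to members, gene models and clone names were skipped. Alternatives changed the pseudocount, the minimum mean, the scaling, the variance model, the samples and the replicate block.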

Additional observations from a re-analysis of the deposited data

How the results depend on the processing

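The number of members called for NO against GS was 1, and 2 with the replicate block (Hspa1a and Hspa1b), 2 with equal totals, 3 with no minimum fold change and 1 to 3 leaving out a replicate. For NO against DM it was 1, and 1 to 2 leaving out a replicate, and for DM against GS 0, and 1 with no minimum fold change and 0 to 1 leaving out a replicate. Members passing the F test numbered 2, and 2 to 5 leaving out a replicate, with 5 without NO replicate 1. Of the other chaperone genes, 7 were called for NO against GS, 34 with no minimum fold change and 6 to 15 leaving out a replicate, the most without NO replicate 1. For NO against DM 10 were called, 6 from the 6 samples alone, 26 with no minimum fold change and 5 to 17 leaving out a replicate, 17 without NO replicate 1 and 5 without NO replicate 2 or DM replicate 2. For DM against GS 2 were called, and 1 with a pseudocount of 5, with quantile normalisation and in the range of 1 to 2 leaving out a replicate. The block with the replicate number left every other count here as it was, and changed the call of 1 member, Hspa1b for NO against GS (adjusted p = 0.0418). For these media the deviations of same-numbered samples correlated at -0.046, 0.05 and -0.106, and whether the numbers pair any samples is not given.

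Direction turned only for members whose difference lay near 0 and passed no test. With quantile normalisation, Hspa1b was at -0.03 and Hspa8 at 0.01 for DM against GS, and Hsp90aa1 at 0.08 and Hspb1 at 0.07 for NO against DM. With equal totals, Hsp90aa1 was at 0.03 and Hspb1 at 0.02 for NO against DM. Leaving out a replicate gave, for DM against GS, -0.09 to 0.17 for Hspa1b, -0.49 to 0.09 for Hsph1 and -0.34 to 0.03 for Hspd1, each turned without DM replicate 3, and -0.18 to 0.25 for Bag3, turned without GS replicate 3. For NO against GS it gave -0.13 to 0.39 for Dnajb1, turned without NO replicate 2. For NO against DM it gave -0.17 to 0.07 for Hsp90aa1, turned without DM replicate 1 (0.06) and NO replicate 2, -0.23 to 0.09 for Hspb1, turned without DM replicate 3, and -0.13 to 0.23 for Hspe1, turned without NO replicate 1 and DM replicate 3 (-0.12). The cause was not tested. Quantile normalisation moved the median of all genes from -0.02 to -0.11 for NO against GS. It called 1304 genes higher and 629 lower there, against 1830 and 297, and 959 and 514 for NO against DM, against 1231 and 321. Each medium had 3 samples, 14285670 reads limited the shallowest library, and Hspa1a rested on few reads in GS and DM.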

Other observations

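Dnajc25, a J-domain protein of the endoplasmic reticulum, had 214, 222 and 226 in GS, 153, 135 and 112 in DM and 109, 116 and 126 in NO. It was lower in NO than in GS (log2 fold change -0.91, limma adjusted p = 0.00576), with any 1 library left out too, and all 6 samples in serum lay under all 3 GS samples. The difference of DM from GS was -0.73 (adjusted p = 0.0336), and passed with 1 library left out in 2 of 9 cases only, those of NO replicates 1 and 2, with an adjusted p of up to 0.119.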
